A study of Mus musculus with 12 samples.

Results

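The 2 siRNAs against SRSF1 were read here as a single depleted arm of 6 libraries and set against the 6 libraries in which SRSF1 was intact. Every library was made from U2OS, a line of human osteosarcoma cells. The siRNA arm held 3 libraries of cells given siSRSF1-2 and 3 of cells given siSRSF1-3, and the intact arm held 3 libraries of blank cells and 3 of cells made to overexpress LINC01134, a long non-coding RNA (OE-LINC01134). A gene was a member when each of its 6 values in the siRNA arm lay on the same side of all 6 values in the intact arm, and such a gene is called separated below. Of 58735 genes in the deposited table, 1402 were separated, 677 of them higher and 725 lower in the siRNA arm. Of these, 1168 passed a filter on low values (a mean of at least 0.5 FPKM over the 12 libraries, which 17538 genes passed), 576 of them higher and 592 lower. FPKM (fragments per kilobase of gene, scaled to library size) is a level per length. No library of cells given a control siRNA was analysed here, so transfection itself cannot be told apart from loss of SRSF1. OE-LINC01134 serves as a second SRSF1-intact group and differs from blank cells by its own transgene. The labels name the organism as mouse, while the cell line and the gene identifiers are human. The study's methods describe siRNA transfection of another osteosarcoma line, HOS, and the labels state no dose or time for the U2OS cells.

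SRSF1 (serine and arginine rich splicing factor 1, formerly ASF/SF2) is the founding member of the SR proteins, which bind exonic enhancers in pre-mRNA through RNA recognition motifs and recruit the splicing machinery through an arginine-serine domain. It also takes part in nonsense-mediated decay, mRNA export and translation, is phosphorylated by the SRPK and CLK kinases, and limits its own level by regulated splicing of its transcript. The gene is a known oncogene in several tumors. Values per gene do not resolve transcripts, so splicing itself was not measured here.

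Some libraries stood apart from their groups. Libraries held 26237763 to 32954539 reads on genes. Within a group, the spread of read counts between 2 libraries was 2.00 to 2.88 times counting noise for blank replicates 2 and 3, for OE-LINC01134 replicates 1 and 3 and for all pairs of siSRSF1-2, which is close to technical repeats. The other pairs reached 28.5 to 122.5 times counting noise. Blank replicate 1 and OE-LINC01134 replicate 2 were closer to each other (21.5 times counting noise) than to their own group mates (36.9 to 41.4 times). In the siSRSF1-3 group every library differed from the others, replicate 1 from replicate 3 by 122.5 times. Replicate 3 was closer to the siSRSF1-2 libraries (19.6 to 24.9 times) than to its own group mates (66.9 and 122.5 times). The FPKM of siSRSF1-3 replicates 1 and 2 summed to 611084 and 410612, against 281051 to 324607 in the other libraries. Both also had the fewest genes with a read (27922 and 27813, against 30157 to 32629). LINC01134 lay between 878 and 1279 FPKM in the OE-LINC01134 libraries and between 0.496 and 1.11 FPKM in the other 9, as the labels state. The labels do not say whether replicates were separate cultures, so the tests below measure the spread between these libraries, part of which may be technical.

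The target of both siRNAs was lower in each library that received them. SRSF1 (ENSG00000136450, chromosome 17, 58003360 to 58007346, minus strand; the labels name a mouse build, which these human coordinates are not from, and no human build was given in the sources used here) had lowest, median and highest values of 19.8, 29.97 and 35.9 FPKM in the intact arm and 3.33, 7.25 and 7.90 FPKM in the siRNA arm. In the OE-LINC01134 libraries, the second reference, it stood at 31.8, 29.6 and 30.3 FPKM. The lowest intact library, blank replicate 2 with 19.8 FPKM, was above the highest siRNA library, siSRSF1-3 replicate 3 with 7.90 FPKM, so the arms were apart by 1.31 on the log2 scale. The difference of the arm means was -2.07 (standard error 0.224) on the log2(FPKM + 0.1) scale, 4.20-fold lower (adjusted p = 0.000732 from limma, on the same values that make it a separated gene). Against blank cells and against OE-LINC01134 cells, the group means of siSRSF1-2 differed by -1.72 and -2.05, and those of siSRSF1-3 by -2.09 and -2.42. Among the 592 lower genes, SRSF1 had the second widest gap and the eighth largest difference. When near-identical replicates were averaged, which left 4 libraries against 4, the difference was -2.23 and the adjusted p from limma was 0.0527.

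Of the 13 SR splicing factors tested, SRSF1 alone passed the threshold of the pooled contrast. That threshold was an adjusted p under 0.05 and an absolute log2 difference over 1. TRA2A, a splicing activator related to the Drosophila transformer-2 protein, was the other separated member. Over all genes tested, 0.912% fell past the threshold and 3.38% were separated lower. TRA2A had 24.7, 27.2 and 35.2 FPKM in the intact arm and 15.5, 16.7 and 20.99 FPKM in the siRNA arm, a log2 difference of -0.72 that was under the fold required. SRSF7, which also takes part in mRNA export, had 35.9, 44.03 and 47.2 FPKM in the intact arm and 25.9, 30.4 and 41.98 FPKM in the siRNA arm, and SRSF6 had 33.9, 36.96 and 49.1 FPKM in the intact arm and 45.4, 49.6 and 56.6 FPKM in the siRNA arm. For both the arms overlapped, with log2 differences of -0.42 (adjusted p = 0.112 from limma) and 0.33 (adjusted p = 0.149 from limma). SRSF3 had 40.2, 44.9 and 61.8 FPKM in the intact arm and 33.5, 36.3 and 51.7 FPKM in the siRNA arm, and the arms overlapped. SRSF9, the nearest relative of SRSF1, had 30.3, 34.2 and 37.5 FPKM in the intact arm and 9.66, 24.5 and 36.7 FPKM in the siRNA arm. Its highest siRNA library, siSRSF1-3 replicate 2, lay above most intact libraries and its lowest, siSRSF1-3 replicate 1, below all of them. The remaining members (SRSF2, SRSF4, SRSF5, SRSF8, SRSF10, SRSF11 and TRA2B) had log2 differences between -0.36 and 0.20, none past the threshold. Of 7 SR protein kinases, none passed the threshold and SRPK3, a kinase best known from muscle, was separated higher. It had 1.28, 1.49 and 1.90 FPKM in the intact arm and 2.53, 2.76 and 2.83 FPKM in the siRNA arm. Among all genes tested, 3.28% were separated higher.

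**Figure D1:**
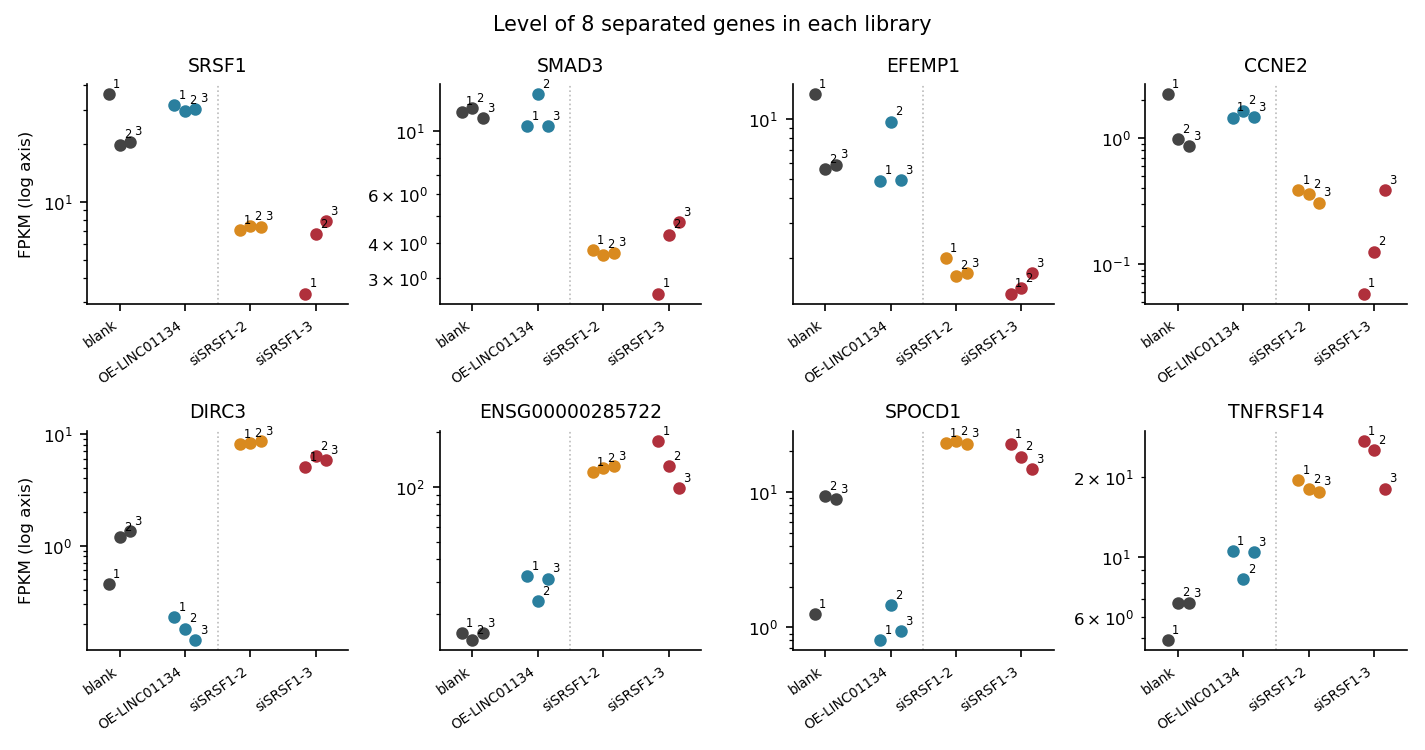
FPKM (log axis) of 8 separated genes in each of the 12 libraries, 1 panel a gene, with the groups on the horizontal axis and the replicate number beside each point. The dotted line divides the intact arm on the left from the siRNA arm on the right, and in each panel the 6 points on one side lie above all 6 on the other, as the rule requires; for SRSF1 the gap runs from 7.90 to 19.8 FPKM.

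The separated genes made up 3.28% (higher) and 3.38% (lower) of the genes tested. Since the pooled contrast uses the same values as the rule, the following differences describe the members and are no test of them. The median log2 difference was 0.76 among the higher and -0.74 among the lower genes, and was -0.01 over all genes tested. Gaps between the arms were mostly narrow, with a median of 0.14 on the log2 scale, while 71 higher and 49 lower genes had a gap over 0.5 and 13 and 7 had a gap over 1. The widest gap, 1.90, was that of AGXT, the peroxisomal aminotransferase that detoxifies glyoxylate, which had 0.0387, 0.0490 and 0.439 FPKM in the intact arm and 1.91, 2.31 and 4.32 FPKM in the siRNA arm and is named after its values were seen. At the edge of the rule, ATP5F1B, a subunit of ATP synthase, had its lowest intact and highest siRNA libraries both at 239 FPKM, GPSM2, which orients the mitotic spindle, had both at 4.08 FPKM, and NUP62, a nuclear pore protein, both at 15.7 FPKM, in each case with a gap under 0.001. Just outside it, MMP14, a membrane-bound metallopeptidase, had its lowest intact and highest siRNA libraries at 18.5 FPKM, C5orf30 at 2.61 FPKM, and ATP6V0E1, a subunit of the vacuolar proton pump, its highest intact and lowest siRNA libraries at 75.4 FPKM.

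Protein-coding genes made up 79.2% of the higher and 87.2% of the lower members, against 70.0% of all genes tested. Long intergenic non-coding RNAs made up 9.20% of the higher members (53 genes) and 4.05% of the lower (24 genes), against 6.87% of all. Pseudogenes were at 4.51% and 3.04%, against 8.72%. Genes that the deposited table assigns to a family of transcription factors were 26 of the higher and 36 of the lower members, at 4.51% and 6.08%, near the 5.91% of all genes. The members were longer (median gene length 4131 bases for higher and 5148.5 for lower, 3701 for all) and at higher levels (median mean FPKM 6.56 and 5.30, against 4.06). A gene with more reads has less counting error and its libraries overlap less by that alone; the part this played was not tested.

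Among the siRNA libraries, siSRSF1-2 replicate 3 was nearest to the intact arm most often, for 21.7% of the higher and 22.8% of the lower members, and siSRSF1-3 replicate 1 for 11.8% and 8.95%. On the intact side, blank replicate 3 was nearest for 27.8% and 22.3%, blank replicate 2 for 20.5% and 30.4%, and OE-LINC01134 replicate 2 for 7.99% and 5.41%. The median difference was larger with siSRSF1-3 (0.84 against blank and 0.91 against OE-LINC01134 for the higher genes, -0.84 and -0.87 for the lower) than with siSRSF1-2 (0.56 and 0.61, -0.56 and -0.62). These comparisons share libraries. Another 647 higher and 642 lower genes would have been separated had 1 particular library been left out. When the FPKM of each library were brought to a common sum, 252 genes were separated higher and 761 lower, and the median log2 difference of all genes moved from -0.01 to -0.20.

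In the pooled contrast, fitted with limma over the 17538 genes, 201 genes rose (1.15% of those tested) and 160 fell (0.912%) with siRNA. Of these, 171 and 126 were separated, and 30 and 34 passed the threshold with overlapping arms. The other 405 higher and 466 lower separated genes did not pass, because the fold was under the threshold or the adjusted p above it. With the same FPKM sum, 102 genes rose and 151 fell, so the share of higher calls went from 55.7% to 40.3%. The calls rest on the libraries being independent. When near-identical replicates were averaged, limma called 0 genes in either direction, while 763 higher and 691 lower genes met that fold at p under 0.05 before adjustment. Without blank replicate 1 and OE-LINC01134 replicate 2, which resemble each other, 76 genes rose and 31 fell, of which 68 and 28 were among the calls above. Without siSRSF1-3 replicates 1 and 2, 230 rose and 180 fell, 133 and 93 of them shared. The lowest counts on leaving out a single library came without OE-LINC01134 replicate 2 (120 and 70), blank replicate 1 (133 and 83), siSRSF1-3 replicate 2 (132 and 94) and siSRSF1-3 replicate 3 (144 and 101). Leaving out libraries cannot end a separation, so it bears on the calls and not on the members. For separated genes, the calls below and how often they held rest on the values that chose them, and are no test.

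**Figure D2:**
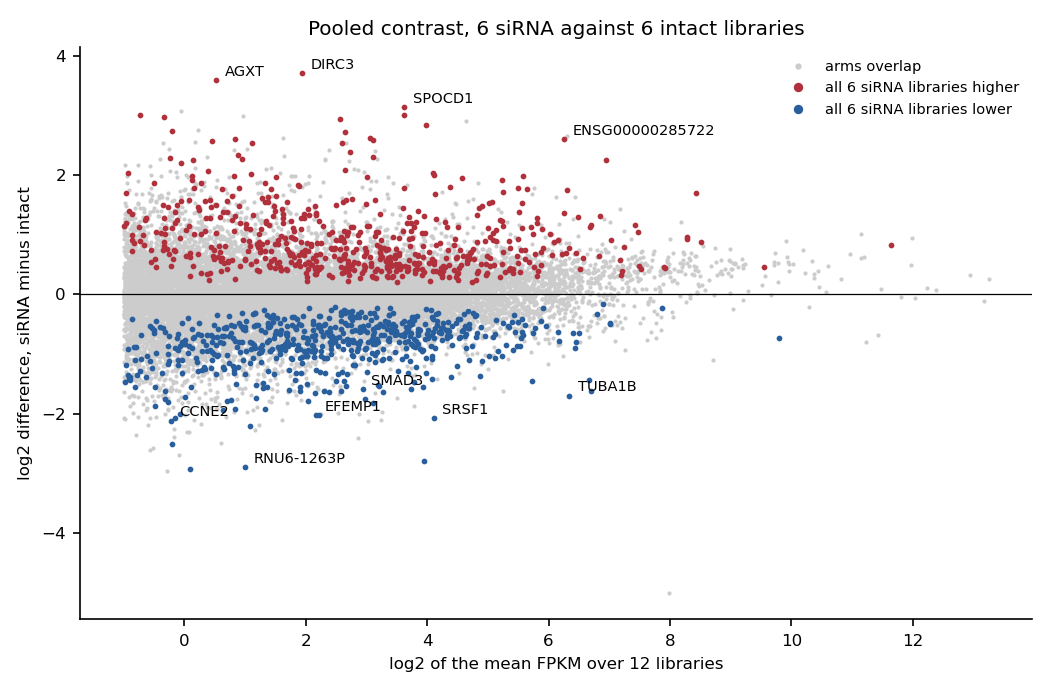
Log2 difference between the siRNA and intact arms (vertical) against the log2 mean FPKM over the 12 libraries (horizontal) for the 17538 genes tested. Red points are the 576 genes whose 6 siRNA libraries were all higher, blue points the 592 that were all lower and gray points the genes whose arms overlapped; DIRC3 at 3.72 and SRSF1 at -2.07 are among the named members.

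Among separated genes with a mean of at least 2 FPKM, the 12 with the largest positive differences held long intergenic non-coding RNAs, pseudogenes and protein-coding genes. DIRC3 (ENSG00000231672, chromosome 2, 217284019 to 217756593), a long intergenic non-coding RNA named for a translocation in renal carcinoma, lay at 0.142, 0.339 and 1.36 FPKM in the intact arm and 5.05, 7.23 and 8.66 FPKM in the siRNA arm, a log2 difference of 3.72 (standard error 0.434). Its 3 OE-LINC01134 libraries, at 0.142 to 0.229 FPKM, were below the 3 blank libraries, at 0.449 to 1.36 FPKM, and both were below all siRNA libraries. The intergenic RNA ENSG00000285722 (chromosome 22, 49372924 to 49377119) was the most abundant of these genes, at 14.4, 19.8 and 32.5 FPKM in the intact arm and 98.3, 128 and 178 FPKM in the siRNA arm, a difference of 2.60 (standard error 0.230). Here the order of the reference groups was turned, with blank libraries at 14.4 to 15.8 FPKM and OE-LINC01134 libraries at 23.7 to 32.5 FPKM. Group means of ENSG00000285722 differed by 3.03 and 2.11 with siSRSF1-2 and by 3.09 and 2.18 with siSRSF1-3, against blank and OE-LINC01134 in turn.

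SPOCD1 (chromosome 1, 31790422 to 31816051), which in the germ line takes part in piRNA-directed DNA methylation, had 0.804, 1.36 and 9.27 FPKM in the intact arm and 14.7, 22.7 and 23.8 FPKM in the siRNA arm, a difference of 3.14 (standard error 0.571). IL24 (chromosome 1, 206897443 to 206904139), a cytokine of the interleukin-10 family, had 0.148, 2.65 and 10.9 FPKM in the intact arm and 16.5, 18.2 and 28.1 FPKM in the siRNA arm, a difference of 3.00 (standard error 0.763). In both genes blank replicates 2 and 3, at 9.27 and 8.91 FPKM for SPOCD1 and 10.5 and 10.9 FPKM for IL24, were far above the 4 other intact libraries, and blank replicate 1 was not. The same 2 libraries were highest in the intact arm for IGFN1, a protein of the muscle Z-disc region with 0.528, 1.24 and 2.68 FPKM in the intact arm and 6.14, 10.95 and 12.2 FPKM in the siRNA arm (difference 2.95, standard error 0.379), and for CPNE7, a calcium-dependent membrane-binding protein with 0.600, 0.967 and 4.42 FPKM in the intact arm and 7.996, 10.5 and 13.8 FPKM in the siRNA arm (difference 2.73, standard error 0.438). CD300LB, an activating receptor of myeloid cells, had 0.740, 1.17 and 4.07 FPKM in the intact arm and 7.85, 9.96 and 12.4 FPKM in the siRNA arm (difference 2.54). TRAF1, an adaptor of TNF receptors and a target of NF-kB, had 0.560, 1.47 and 5.67 FPKM in the intact arm and 7.62, 10.6 and 13.6 FPKM in the siRNA arm (difference 2.40). For both again the highest intact library was blank replicate 3.

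Another 4 of the 12 leading higher genes were 1.76 to 72.9 FPKM in the siRNA arm with the highest values in siSRSF1-3 replicate 1. The pseudogene DDX39BP2 had 0.840, 3.03 and 6.28 FPKM in the intact arm and 11.2, 17.5 and 72.9 FPKM in the siRNA arm. The pseudogene PYY2 had 0.545, 1.64 and 6.15 FPKM in the intact arm and 7.84, 9.37 and 33.5 FPKM in the siRNA arm. The intergenic RNA ENSG00000271579 had 0.644, 1.99 and 5.40 FPKM in the intact arm and 9.38, 11.6 and 27.7 FPKM in the siRNA arm. The intergenic RNA LINC00524 had 0.165, 0.342 and 1.52 FPKM in the intact arm and 1.76, 2.71 and 9.15 FPKM in the siRNA arm. DDX39BP2 is 258 bases long and related to the helicase gene DDX39B, so its reads (6 to 53 in the intact and 85 to 369 in the siRNA libraries) may be shared with its parent. All 12 leading higher genes rose past the threshold of the pooled contrast. With a library left out, IL24 rose in only 3 of the 12 settings, PYY2 in 9 and the others in all 12. Since these genes were chosen on the same values, their calls describe them and are no test.

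Among the 12 such genes with the largest negative differences, SRSF1 included, 3 were short RNAs, 1 was an intergenic RNA and the rest were protein-coding. EFEMP1 (fibulin-3; chromosome 2, 55865967 to 55924139), a secreted matrix glycoprotein, had 4.90, 5.72 and 13.2 FPKM in the intact arm and 1.33, 1.65 and 1.99 FPKM in the siRNA arm, a difference of -2.02 (standard error 0.239), and every siRNA library lay within 1.33 to 1.99 FPKM. PRIM1 (chromosome 12, 56731596 to 56752373), the catalytic subunit of the primase that starts DNA synthesis, had 10.5, 13.7 and 15.1 FPKM in the intact arm and 1.36, 3.94 and 5.63 FPKM in the siRNA arm, a difference of -1.83 (standard error 0.277). FAM111B, a serine protease whose level peaks in S phase, had 3.47, 8.48 and 11.9 FPKM in the intact arm and 0.621, 2.04 and 2.42 FPKM in the siRNA arm (difference -2.02). PDK4, which inhibits pyruvate dehydrogenase and is induced by starvation, had 2.34, 3.47 and 6.76 FPKM in the intact arm and 0.282, 1.04 and 1.77 FPKM in the siRNA arm (difference -1.92). The intergenic RNA ENSG00000264112 had 5.54, 5.89 and 8.84 FPKM in the intact arm and 0.886, 1.89 and 2.67 FPKM in the siRNA arm (difference -1.79). It lies on chromosome 17 at 57989039 to 57994850, downstream of SRSF1 (58003360 to 58007346) on the same minus strand. Against blank and OE-LINC01134 in turn, its group means differed by -1.57 and -1.70 with siSRSF1-2 and by -1.89 and -2.02 with siSRSF1-3. Whether its reads come from transcripts of SRSF1 was not tested. EFEMP1, PRIM1, FAM111B, PDK4 and ENSG00000264112 fell past the threshold in each setting that left out a library. They were chosen on the same values, so these calls are no test of them.

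THBS1, the matricellular inhibitor of angiogenesis, had 4.73, 5.10 and 44.5 FPKM in the intact arm and 1.73, 2.94 and 2.96 FPKM in the siRNA arm. TENM2, an adhesion receptor of synapses, had 1.47, 2.53 and 7.97 FPKM in the intact arm and 0.517, 0.943 and 1.17 FPKM in the siRNA arm. TUBA1B, the major alpha-tubulin of many cells, had 86.2, 89.7 and 205 FPKM in the intact arm and 4.32, 54.4 and 57.3 FPKM in the siRNA arm. For all 3 the top of the intact arm was blank replicate 1, followed by OE-LINC01134 replicate 2, and for THBS1 the other 4 intact libraries lay between 4.73 and 5.18 FPKM. TENM2 passed the pooled test, and in 7 of the 12 settings that leave out a library (not without blank replicate 1, OE-LINC01134 replicate 2 or any of the siSRSF1-3 libraries), whereas THBS1 (adjusted p = 0.0654 from limma) and TUBA1B (adjusted p = 0.106 from limma) did not. Reads of TUBA1B may be shared with its near-identical paralogs. The short RNAs were RNU6-1263P (1.70, 3.70 and 4.23 FPKM in the intact arm and 0, 0.594 and 1.28 FPKM in the siRNA arm), SNORD17 (18.4, 23.2 and 30.8 FPKM in the intact arm and 0, 8.42 and 14.7 FPKM in the siRNA arm) and ENSG00000222881 (2.30, 3.49 and 4.0 FPKM in the intact arm and 0, 0.926 and 1.58 FPKM in the siRNA arm). They rest on few reads, 5 to 13 intact against 0 to 4 for RNU6-1263P and 7 to 14 against 0 to 5 for ENSG00000222881, and 0 reads allow up to 3. The calls held in 9 (RNU6-1263P) and 4 (ENSG00000222881) of the 12 settings that leave out a library. SNORD17, with 124 to 202 reads in the intact libraries, had 0 to 103 in the siRNA libraries and did not pass the test (adjusted p = 0.134 from limma). Such RNAs are much shorter than a polyadenylated transcript, and the part of RNA size selection in their values was not tested.

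SMAD3 (chromosome 15, 67063763 to 67195195), a transducer of TGF-beta signals into the nucleus, is added after its values were seen, since it had the smallest adjusted p among the lower genes named here. It had 10.4, 11.4 and 13.5 FPKM in the intact arm and 2.65, 3.75 and 4.75 FPKM in the siRNA arm, a difference of -1.59 (standard error 0.140). The 4 group comparisons gave nearly the same difference (-1.62 and -1.59 with siSRSF1-2, -1.60 and -1.56 with siSRSF1-3).

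The DNA replication list held more separated genes than any other list. Over all genes tested, 3.28% were separated higher and 3.38% lower, while 1.15% rose and 0.912% fell past the threshold. The counts given for any list are to be read beside these shares, and no set test was run. All 32 of its members had a negative difference, with a median of -0.66 against -0.01 over all genes tested, 10 were separated lower and 3 fell past the threshold (0 rose). ORC1, the largest subunit of the origin recognition complex, had 5.40, 7.03 and 13.7 FPKM in the intact arm and 2.86, 3.09 and 3.29 FPKM in the siRNA arm (difference -1.33). MCM4, a subunit of the replicative helicase, had 14.7, 15.99 and 34.4 FPKM in the intact arm and 6.09, 8.33 and 10.4 FPKM in the siRNA arm (difference -1.22). CDC6, which loads that helicase, had 12.9, 19.5 and 22.5 FPKM in the intact arm and 6.96, 7.92 and 10.1 FPKM in the siRNA arm (difference -1.13). These 3 fell in each of the 12 settings that leave out a library. MCM6 (-0.91), LIG1 (-0.68) and GINS4 (-1.33) were separated as well without passing. Of the intact libraries blank replicates 2 and 3 were lowest in ORC1, MCM6, CDC6 and LIG1. Against blank and OE-LINC01134 cells in turn, the list's medians were -0.58 and -0.89 with siSRSF1-2 and -0.46 and -0.73 with siSRSF1-3. Without blank replicate 1 and OE-LINC01134 replicate 2 the list's median was -0.51 and 1 member fell past the threshold.

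In the mitosis list 29 of 30 members had a negative difference, with a median of -0.67, 7 separated lower and 3 that fell past the threshold. In bulk libraries, fewer cells in a phase of the cycle and less RNA per cell cannot be told apart. KIF20A, a kinesin of the central spindle, had 6.15, 7.45 and 15.6 FPKM in the intact arm and 1.38, 3.01 and 3.99 FPKM in the siRNA arm (difference -1.62), and BUB1, a kinase of the spindle checkpoint, had 17.6, 23.5 and 27.3 FPKM in the intact arm and 5.28, 12.7 and 14.2 FPKM in the siRNA arm (difference -1.09). CCNA2 (cyclin A2) fell as well, at 24.96, 48.96 and 52.2 FPKM in the intact arm and 17.3, 19.1 and 25.2 FPKM in the siRNA arm, although its arms overlapped through blank replicate 2 and siSRSF1-3 replicate 3. The calls of BUB1 and CCNA2 each held in 5 of the 12 settings that leave out a library. KIF11 (-0.66), TTK (-0.77), NDC80 (-0.65) and AURKA (-0.67) were separated without passing. Without the 2 intact libraries that stood apart, 0 members of this list passed the threshold and the median was -0.57. Of 22 G1 cyclins, CDKs and inhibitors, with a median of -0.48, 4 were separated lower and 1 fell. CCNE2 (cyclin E2), which drives entry into S phase, fell from 0.869, 1.47 and 2.23 FPKM in the intact arm to 0.0580, 0.335 and 0.388 FPKM in the siRNA arm (difference -2.12, standard error 0.344), in all 12 settings that leave out a library but not without both intact libraries that stood apart. Its partner CDK2 (-0.83), the retinoblastoma relative RBL1 (-0.80) and the CDK inhibitor CDKN2C (-0.83) were the other separated members, under the fold required. Of 29 p53 targets, with a median of -0.11, 0 passed the threshold and CCNG1 was separated lower (68.6, 72.4 and 78.8 FPKM in the intact arm and 41.3, 53.5 and 55.6 FPKM in the siRNA arm).

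Of 23 hnRNP proteins, which package nascent RNA and often act against SR proteins in splicing, 21 had a negative difference (median -0.36), 5 were separated lower and 0 passed the threshold. HNRNPA2B1 had 75.3, 99.98 and 188 FPKM in the intact arm and 46.6, 60.8 and 67.8 FPKM in the siRNA arm (difference -0.89), HNRNPH3 49.2, 57.3 and 71.6 FPKM in the intact arm and 34.1, 36.7 and 37.4 FPKM in the siRNA arm (difference -0.69), and HNRNPA3, HNRNPUL1 and HNRNPL were separated with differences of -0.66, -0.71 and -0.70. The 19 genes of nonsense-mediated decay and the exon junction complex had a median of -0.02. Among them SMG5 was separated higher (44.9, 50.6 and 53.2 FPKM in the intact arm and 54.3, 63.7 and 69.5 FPKM in the siRNA arm), and 0 passed. Of 20 described splicing targets of SRSF1 (median -0.07), 0 passed and 3 were separated. FANCI and DMKN, among these 3, were named by the study from splicing after SRSF1 knockdown in U2OS cells. They are thus not independent of the present data. FANCI, a Fanconi anemia protein, had 12.95, 18.8 and 19.8 FPKM in the intact arm and 7.63, 10.6 and 11.8 FPKM in the siRNA arm. BCL2L11, the apoptosis inducer BIM, had 1.97, 2.11 and 3.35 FPKM in the intact arm and 1.21, 1.59 and 1.86 FPKM in the siRNA arm. DMKN, a secreted protein of the epidermis, had 4.41, 6.68 and 7.19 FPKM in the intact arm and 7.67, 8.25 and 26.7 FPKM in the siRNA arm. DMKN was highest in siSRSF1-3 replicates 1 and 2. SRRM2, a scaffold of nuclear speckles, had 40.5, 55.1 and 69.1 FPKM in the intact arm and 35.2, 65.6 and 70.96 FPKM in the siRNA arm, with overlapping arms. Levels say nothing of which exons these transcripts held.

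Genes of the extracellular matrix included the list with the most calls. Of 26 matricellular proteins and proteoglycans (median -0.62), 6 were separated lower and 5 fell past the threshold. SDC1 (syndecan-1), a cell-surface heparan sulfate proteoglycan, had 16.4, 20.9 and 32.2 FPKM in the intact arm and 5.91, 6.94 and 9.72 FPKM in the siRNA arm (difference -1.56). CCN2 (connective tissue growth factor), also a target of YAP/TAZ, had 87.6, 89.8 and 382 FPKM in the intact arm and 29.5, 45.9 and 54.4 FPKM in the siRNA arm (difference -1.63), with 382 and 239 FPKM in blank replicate 1 and OE-LINC01134 replicate 2 and 88 to 90 FPKM in the other 4 intact libraries, and its call held in 9 of the 12 settings that leave out a library. FBN2 (fibrillin-2) had 5.59, 7.12 and 9.17 FPKM in the intact arm and 1.37, 3.23 and 3.87 FPKM in the siRNA arm. LTBP1, which stores latent TGF-beta in the matrix, had 7.01, 9.20 and 12.6 FPKM in the intact arm and 2.34, 4.82 and 5.35 FPKM in the siRNA arm. GPC4, a glypican, was separated at 2.07, 2.52 and 4.17 FPKM in the intact arm and 1.19, 1.29 and 1.52 FPKM in the siRNA arm and just missed the fold required. SMOC1, the fifth to fall, was not separated (1.62, 5.23 and 6.14 FPKM in the intact arm and 1.15, 1.53 and 1.83 FPKM in the siRNA arm), and its call held in 2 of the 12 settings. Without the 2 intact libraries that stood apart, 2 of the 26 fell and the median was -0.44. The list's medians were -0.69 and -0.22 with siSRSF1-2 and -1.21 and -0.57 with siSRSF1-3, against blank and OE-LINC01134 cells.

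Of 29 genes for collagens and matrix assembly (median -0.52), 6 were separated lower (20.7%, against 3.38% of all genes tested). COL8A1, a short-chain collagen, fell (1.42, 2.60 and 3.09 FPKM in the intact arm and 0.754, 0.965 and 1.22 FPKM in the siRNA arm, difference -1.16), and 0.912% of all genes fell. COL1A1, the main collagen of bone, had 19.2, 23.9 and 39.7 FPKM in the intact arm and 14.1, 15.1 and 17.9 FPKM in the siRNA arm. PLOD2, a lysyl hydroxylase of collagen, had 9.41, 12.01 and 16.6 FPKM in the intact arm and 5.97, 6.48 and 7.63 FPKM in the siRNA arm. P4HA1, a prolyl hydroxylase of collagen, had 18.1, 20.7 and 45.3 FPKM in the intact arm and 13.5, 14.3 and 15.9 FPKM in the siRNA arm. In P4HA1 blank replicates 2 and 3 (44.8 and 45.3 FPKM) exceeded all other intact libraries (18.1 to 21.1 FPKM). The lysyl oxidases LOXL4 (-0.52) and LOXL3 (-0.34) were separated by small margins. This list depended on the reference, with medians of -0.68 and -0.87 against blank and -0.23 and -0.25 against OE-LINC01134 for siSRSF1-2 and siSRSF1-3. None of 20 plasminogen activators, metallopeptidases and inhibitors was separated (median -0.34). Their medians were negative against blank only, at -0.87 with siSRSF1-2 and -0.74 with siSRSF1-3. Against OE-LINC01134 they were 0.13 and 0.0004, and OE-LINC01134 minus blank was -0.87. PLAT, the tissue plasminogen activator, and TIMP3 fell with overlapping arms. PLAT had 2.76, 12.9 and 16.1 FPKM in the intact arm and 1.29, 2.60 and 3.10 FPKM in the siRNA arm. TIMP3, an inhibitor of metallopeptidases, had 2.08, 4.56 and 5.62 FPKM in the intact arm and 1.37, 1.89 and 2.30 FPKM in the siRNA arm. OE-LINC01134 replicate 1 reached down into the siRNA arm in both genes, and replicate 3 in TIMP3. Each of the 2 calls held in 2 of the 12 settings that leave out a library (without OE-LINC01134 replicate 1 or 3), and neither held without blank replicate 1 and OE-LINC01134 replicate 2. Of 19 integrins and laminins (median -0.30) 0 passed. LAMA1 was separated higher (14.7, 22.6 and 23.5 FPKM in the intact arm and 23.9, 43.6 and 55.9 FPKM in the siRNA arm), LAMB2 (-0.41) and LAMA5 (-0.83) lower. Of 8 IGF binding proteins, IGFs and receptors, 0 were separated and 0 passed (median -0.57).

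Signaling lists held separated genes of both directions. In the NF-kB and cytokine list 17 of 20 members had a positive difference (median 0.40), and TNFRSF14 and RELB rose and were separated. TNFRSF14, a TNF receptor family member, had 4.91, 7.54 and 10.5 FPKM in the intact arm and 17.6, 18.7 and 27.2 FPKM in the siRNA arm (difference 1.41, standard error 0.197), and RELB, a subunit of the non-canonical NF-kB pathway, 11.2, 28.3 and 30.5 FPKM in the intact arm and 37.6, 42.2 and 80.1 FPKM in the siRNA arm (difference 1.14). TNFRSF14 was called in all 12 settings that leave out a library and RELB in 2 (without blank replicate 2 or 3). The list's median was -0.77 relative to the intact mean in blank replicate 1 and 0.73 and 0.83 in blank replicates 2 and 3, above every siRNA library (0.23 to 0.64). Without blank replicate 1 and OE-LINC01134 replicate 2 it was 0.14 for the pooled difference. Of 22 AP-1 and immediate early genes 0 passed (median 0.18). FOSL1 was separated higher, at 43.6, 62.01 and 66.4 FPKM in the intact arm and 75.8, 108 and 347 FPKM in the siRNA arm, and FOSL2 lower (-0.41). In the list of 22 YAP/TAZ targets (median -0.22), CCN2 and CRIM1 fell. CRIM1 had 14.2, 18.2 and 25.2 FPKM in the intact arm and 4.28, 8.16 and 10.3 FPKM in the siRNA arm. TEAD2, which the list holds although it is itself a TEA domain transcription factor, was separated lower (-0.35). The target ANKRD1 was separated higher (112, 217 and 278 FPKM in the intact arm and 288, 431 and 476 FPKM in the siRNA arm). Of 25 Wnt and Notch genes (median -0.51) 0 passed, with WNT5A (-0.93) and the Wnt antagonist DKK3 (-0.57) separated lower and the Wnt effector LEF1 (0.66) higher. In the list of 28 growth and angiogenic factors (median -0.08), FGF1 was separated higher (1.70, 3.37 and 4.01 FPKM in the intact arm and 5.09, 5.51 and 7.68 FPKM in the siRNA arm) and PDGFC fell with overlapping arms (4.25, 12.4 and 13.9 FPKM in the intact arm and 3.43, 3.88 and 4.39 FPKM in the siRNA arm), a call that held in 3 of the 12 settings that leave out a library and not without blank replicate 1 and OE-LINC01134 replicate 2. Of 23 interferon-stimulated genes (median 0.04) 0 passed and IFI44 was separated lower (-0.80).

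Among 17 members of the BCL2 family (median 0.12), HRK, a BH3-only inducer of apoptosis, rose. It had 1.73, 2.29 and 3.79 FPKM in the intact arm and 5.62, 6.24 and 8.33 FPKM in the siRNA arm (difference 1.36). BCL2L11, the apoptosis inducer given above, was separated lower (-0.56). Against blank and OE-LINC01134 in turn, the family's medians were -0.07 and -0.02 with siSRSF1-2 and 0.28 and 0.34 with siSRSF1-3. The ATF4 and unfolded protein response list (29 tested, median 0.01) was split. TRIB3, a pseudokinase induced by ATF4, rose (54.9, 124 and 136 FPKM in the intact arm and 171, 196 and 377 FPKM in the siRNA arm), although not in any of the 12 settings that leave out a library. DDIT4, an inhibitor of mTORC1, and PDIA4, a protein disulfide isomerase of the endoplasmic reticulum, fell. DDIT4 had 50.4, 81.5 and 98.3 FPKM in the intact arm and 11.03, 32.8 and 34.9 FPKM in the siRNA arm. PDIA4 had 27.8, 28.99 and 38.6 FPKM in the intact arm and 11.7, 12.5 and 17.03 FPKM in the siRNA arm. PSAT1, a serine synthesis enzyme, was separated lower by a small margin (-0.23). Of 32 genes of hypoxia and glycolysis (median -0.18), 5 were separated lower and 2 fell. Against blank the medians of these genes were -0.68 with siSRSF1-2 and -0.35 with siSRSF1-3. Against OE-LINC01134 they were -0.01 and -0.06. LDHA (lactate dehydrogenase A) had 95.1, 159 and 216 FPKM in the intact arm and 41.96, 50.6 and 69.9 FPKM in the siRNA arm (difference -1.44) and HIF1A, the oxygen-regulated transcription factor, 36.4, 43.5 and 72.8 FPKM in the intact arm and 19.3, 24.5 and 30.3 FPKM in the siRNA arm (difference -1.04). The call of HIF1A held in 8 of the 12 settings that leave out a library. The glucose transporter SLC2A1 (-0.76) and the glycolytic enzymes PGK1 (-0.81) and GAPDH (-0.74) were separated without passing. Of 25 genes of cholesterol synthesis (median -0.15) and 16 heat shock proteins (median -0.16) 0 passed, and ACAT2 was separated lower (-0.98). With siSRSF1-2 and siSRSF1-3 against blank, the medians were -0.44 and -0.62 for cholesterol synthesis and -0.54 and -0.60 for heat shock proteins. Against OE-LINC01134 they were 0.26 and 0.19, and -0.08 and 0.09.

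Ribosomal and respiratory genes were highest in the same 2 libraries. Of 79 cytosolic ribosomal proteins, 76 had a positive difference, with a median of 0.46, yet 0 were separated and 0 passed. Relative to the intact mean, the list's median was 1.97 in siSRSF1-3 replicate 1 and 1.22 in replicate 2, 0.17 in replicate 3, and -0.20 to -0.13 in the siSRSF1-2 libraries. Without siSRSF1-3 replicates 1 and 2 the pooled median was -0.07. The 73 nuclear oxidative phosphorylation subunits had a median of 0.29, with 1.55 and 1.0 in the same libraries and -0.19 for the pooled difference without them. ATP5F1B, their separated member, was lower in the siRNA arm (-0.23). Of the 15 mitochondrial genome transcripts (median 0.09), the large ribosomal RNA MT-RNR2 was separated higher (1530.3, 2181 and 3492 FPKM in the intact arm and 3686, 3816 and 5271 FPKM in the siRNA arm), and 0 passed. The share of reads on mitochondrial genes lay between 4.45% and 6.96% in all libraries.

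**Figure D3:**
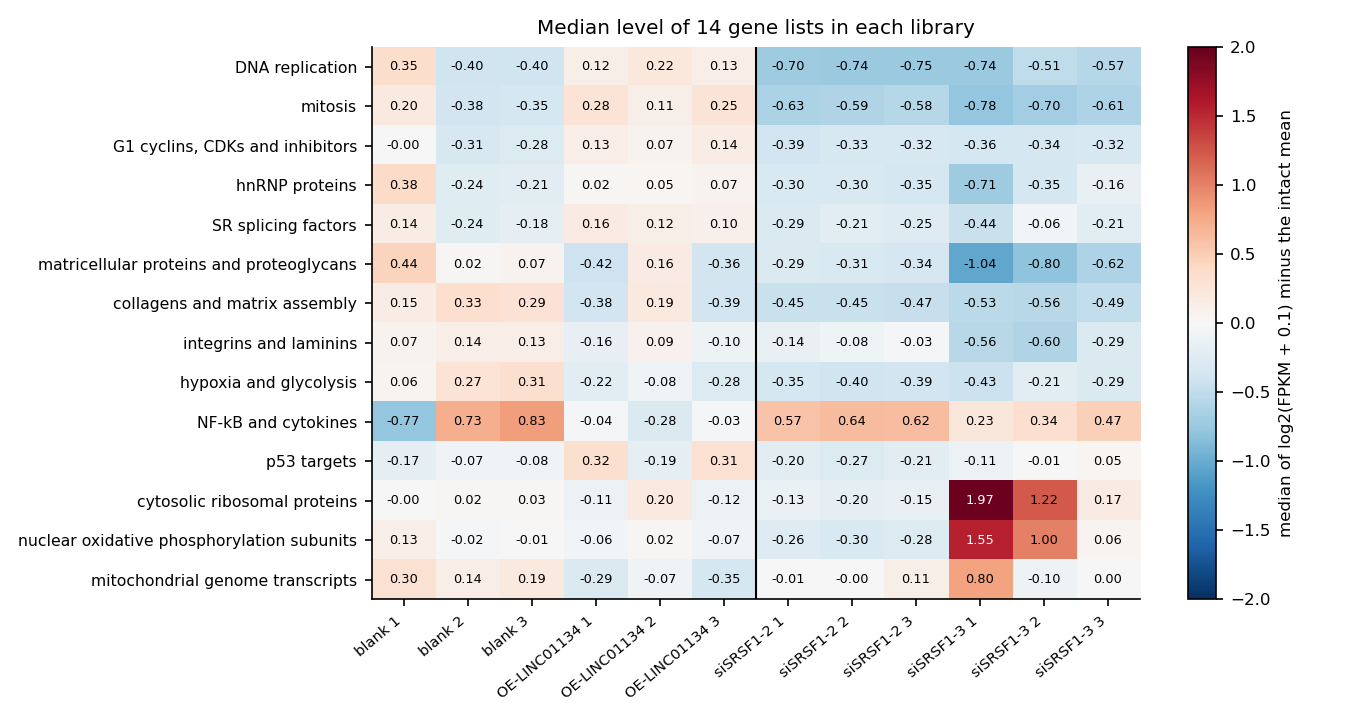
Median over the members of 14 gene lists (rows) of log2(FPKM + 0.1) minus the gene's mean in the intact arm, in each of the 12 libraries (columns); blue is lower and red higher, and the black line divides the arms. DNA replication lay at -0.75 to -0.51 in the siRNA libraries and at -0.40 to 0.35 in the intact ones, while cytosolic ribosomal proteins reached 1.97 in siSRSF1-3 replicate 1.

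Markers of the osteoblast lineage and of other cell types were given as levels. Of 20 osteoblast lineage markers 10 reached 1 FPKM in a library, among them RUNX2, SPARC and COL1A1, and their sum lay between 98.7 and 214 FPKM in the intact and between 117 and 200 FPKM in the siRNA libraries. SCX, a transcription factor of tendon, rose (3.45, 6.05 and 7.71 FPKM in the intact arm and 13.6, 16.1 and 61.8 FPKM in the siRNA arm, highest in siSRSF1-3 replicates 1 and 2), and ALPL, the alkaline phosphatase of mineralizing cells, was separated higher (1.09, 3.76 and 5.94 FPKM in the intact arm and 7.27, 7.71 and 12.9 FPKM in the siRNA arm) without passing (adjusted p = 0.0502 from limma). COL1A1, of the same list, was separated lower (-0.70). The median of the osteoblast list was 0.13, with 6 members positive and 4 negative. It was -0.12 without siSRSF1-3 replicates 1 and 2, and also -0.12 without blank replicate 1 and OE-LINC01134 replicate 2. Of 20 epithelial markers 8 reached 1 FPKM, with KRT8 and KRT18 among them. Their sums were 76.1 to 191 FPKM in the intact and 70.0 to 239 FPKM in the siRNA libraries. The median difference was 0.14 and 0 were separated. That median was -0.14 without siSRSF1-3 replicates 1 and 2, and 0.12 without blank replicate 1 and OE-LINC01134 replicate 2. Of 12 blood and endothelial markers, HBB and HBA1 reached 1 FPKM, 9 were under 0.5 FPKM in every library and CD3E was at 0. HBB (beta-globin) rose, at 5.93, 7.33 and 7.72 FPKM in the intact arm and 10.01, 14.02 and 50.95 FPKM in the siRNA arm, with the highest value in siSRSF1-3 replicate 2. Its call held in 1 of the 12 settings that leave out a library, the one without siSRSF1-3 replicate 1. The part of other cells in the separated genes was not tested.

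To set the 2 siRNAs side by side without shared libraries, siSRSF1-2 was compared with blank cells and siSRSF1-3 with OE-LINC01134 cells, and then the references were exchanged. With siSRSF1-2 against blank, 389 genes rose (2.22% of those tested) and 479 fell (2.73%). Of the 389, 43.2% also had a positive difference with siSRSF1-3 against OE-LINC01134, where 48.8% of all genes did, and their median difference there was -0.30. In the same comparison 47 of them rose (12.1% of the 389 and 12.8% of the 368 genes that rose there), 3 fell, and 2.1% of all genes rose. Without any one siSRSF1-2 library the 47 became 16 to 20, and with a common FPKM sum 15. Of the 479 lower genes, 56.4% were negative in the second comparison (51.2% of all genes), 22 fell (4.59% of the 479 and 9.36% of the 235 that fell there, 1.34% of all genes) and 4 rose. In this pair most genes called with one siRNA against one reference were thus not called with the other siRNA against the other reference. There the higher genes were more often of the opposite sign than of the same sign. The lower genes were more often of the same sign.

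With the references exchanged, 58 genes rose (0.331%) and 163 fell (0.929%) with siSRSF1-3 against blank. Of the 58, 70.7% were positive with siSRSF1-2 against OE-LINC01134 (47.3% of all genes), and 11 rose there (19% of the 58 and 1.45% of 760, where 4.33% of all genes rose). Of the 163 lower genes, 54.6% were negative (52.7% of all genes), and 9 fell (5.52% of the 163 and 2.18% of 413, where 2.35% of all genes fell). The siSRSF1-3 group had the widest spread, and omitting 1 library at a time moved the shared number between 0 and 123 for higher and between 0 and 57 for lower genes. In both pairs blank replicate 1 and OE-LINC01134 replicate 2 lay on opposite sides although they resembled each other, and their part in these shares was not tested.

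**Figure D4:**
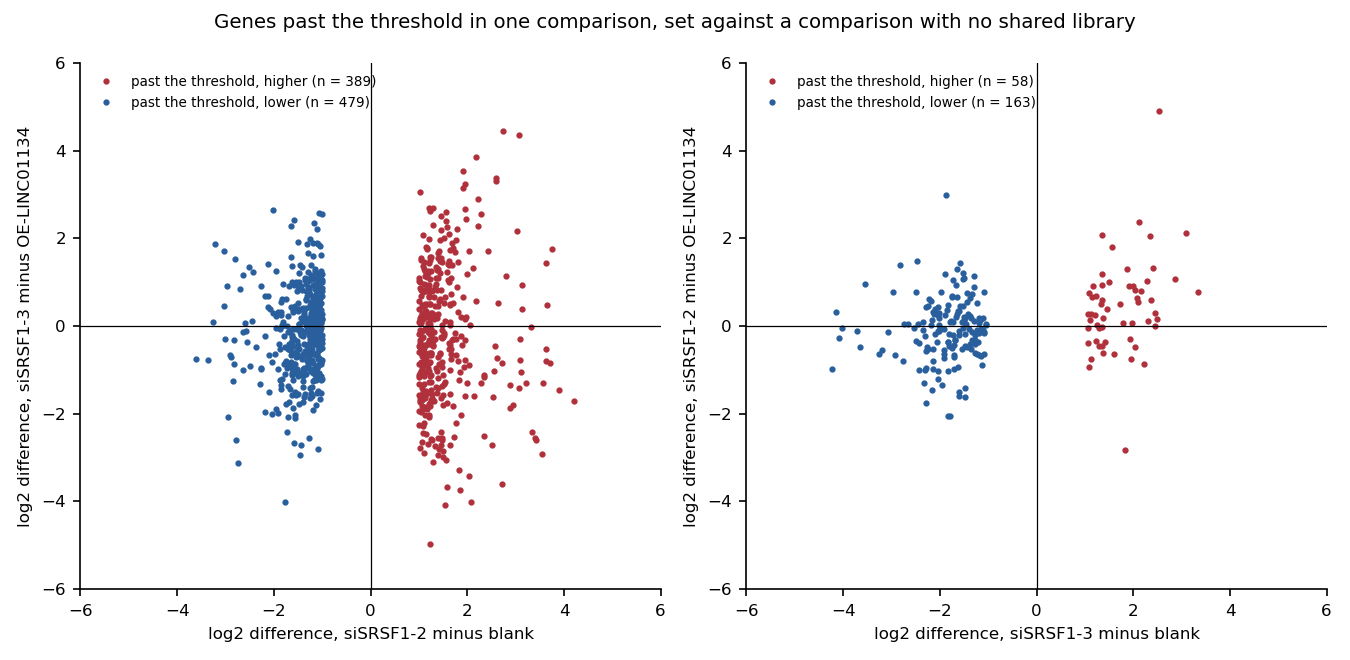
Log2 difference of each gene past the threshold in the first comparison (horizontal) and in the comparison that shares no library with it (vertical). In the left panel siSRSF1-2 against blank is set against siSRSF1-3 against OE-LINC01134 (389 red and 479 blue genes), in the right panel siSRSF1-3 against blank is set against siSRSF1-2 against OE-LINC01134 (58 red and 163 blue genes); both colors spread across the horizontal line at 0, and 43.2% of the red genes on the left have positive values.

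Differences inside an arm, which the rule did not require, were found for few separated genes. In a fit over the 4 groups, 15.6% of the genes tested differed between siSRSF1-3 and siSRSF1-2 past the threshold, in contrast to 6.25% of the higher members (36 genes, all higher still with siSRSF1-3) and 4.05% of the lower members (24 genes, 23 of them lower still with siSRSF1-3). Between OE-LINC01134 and blank cells, 3.93% of all genes, 14 higher members (2.43%) and 2 lower members (0.338%) differed. A rule that keeps arms apart leaves less room for differences within them, so these shares describe the members and were given no test.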

How the data were processed

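RNA was sequenced from 12 U2OS libraries, 3 in each of 4 groups given by the labels. The authors deposited FPKM per gene in a table of the whole series, with gene length and annotation; the aligner and genome build behind the values were not resolved here, since the labels name a mouse build beside human gene identifiers. The deposited FPKM gave whole reads at every value, and carry a median-of-ratios scaling already. Columns named siASF were read as siSRSF1 from the sample titles. Genes with a mean of at least 0.5 FPKM over the 12 libraries were tested on log2(FPKM + 0.1) with limma 3.58.1 (R 4.3.3, eBayes with trend), which understates the change of low genes. A gene passed with an absolute log2 difference over 1 and an adjusted p (Benjamini-Hochberg) under 0.05. The pooled contrast set 6 siRNA against 6 intact libraries without a block. Each comparison of an siRNA group with a single reference group was fitted on its own libraries, 3 against 3. Differences inside an arm used a 4-group fit. The members and the 31 gene lists were chosen with earlier results of these data known. Named genes were the SR factors, the 12 higher and 12 lower separated genes with the largest differences at a mean of at least 2 FPKM, up to 6 separated members of each list by gap, list members named by the study, and 3 genes on each side of the rule; others are said to be chosen after their values were seen (CCNA2, PLAT, TIMP3, SMOC1, PDGFC, SMAD3 and AGXT). The fit was tested on simulated data. Alternatives covered the pseudocount, filter, scaling, voom on recovered reads, references, the replicate block and leaving out libraries.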

Additional observations from a re-analysis of the deposited data

Results flagged for a closer look

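In each arm of 6 libraries, the highest or lowest library of each of the 118 named genes was compared with the others by Dixon's test at the 95% level, 236 arms in all. Chance alone flags about 1 in 20 groups of independent values from a single population. Each arm here joins 2 groups with near-identical replicates, and separated genes were chosen on these values, so that rate need not apply. In 24 arms a library lay far from the rest. It was siSRSF1-3 replicate 1 in 9 cases, blank replicate 1 in 8, OE-LINC01134 replicate 2 in 5 and siSRSF1-3 replicate 2 in 2. These are the libraries that stood apart over all genes.

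In siSRSF1-3 replicate 1, the values far from the other siRNA libraries were 3.33 FPKM for SRSF1, 44.2 for SRSF5, 27.7 for ENSG00000271579, 9.15 for LINC00524, 11.03 for DDIT4, 48.6 for PGK1, 5271 for MT-RNR2, 14.1 for NUP62 and 11.2 for MMP14. In siSRSF1-3 replicate 2 they were 6.14 FPKM for IGFN1 and 50.95 for HBB.

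In blank replicate 1, the values far from the other intact libraries were 55.5 FPKM for SRSF2, 44.5 for THBS1, 4.41 for DMKN, 17.9 for KIF11, 4.17 for GPC4, 54.9 for TRIB3, 287 for ATP5F1B and 75.4 for ATP6V0E1. In OE-LINC01134 replicate 2 they were 8.84 FPKM for ENSG00000264112, 14.99 for LAMA5, 1.70 for FGF1, 13.4 for IFI44 and 84.3 for PSAT1.

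Between the siRNAs, 4 of the named separated genes differed past the threshold of the 4-group fit with limma. The difference of siSRSF1-3 minus siSRSF1-2 was -3.90 on the log2 scale for SNORD17, -1.33 for PDK4, 1.40 for FOSL1 and 1.41 for SCX.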

How the results depend on the processing

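Genes that rose and fell numbered 201 and 160 as reported; 117 and 71 with a pseudocount of 1, 110 and 84 without the filter, 469 and 333 with the 4-group fit, 0 and 0 from group means (317 and 240 at an unadjusted p under 0.05 and the fold) and 0 and 0 with near-identical replicates averaged. They were 1036 and 915 with siSRSF1-3 alone, 76 and 31 without blank replicate 1 and OE-LINC01134 replicate 2, 522 and 422 with unadjusted p, and 399 and 427 without a minimum fold. With the same FPKM sum 102 rose, with blank cells alone as reference 114 and with OE-LINC01134 cells alone 507. Leaving out single libraries gave 120 to 259 and 70 to 149.

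With replicate number as a block, 117 genes rose and 76 fell. Deviations of same-numbered libraries correlated at -0.081 to 0.212, so the numbers were not taken as a pairing.

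Separated genes numbered 909 higher and 927 lower with near-identical replicates averaged, 2551 and 2928 by group means, 1486 and 1675 against blank alone, 1721 and 1786 against OE-LINC01134 alone, 2059 and 2241 with siSRSF1-2 alone, 1856 and 1745 with siSRSF1-3 alone, and 1206 and 1219 without siSRSF1-3 replicates 1 and 2. With the same FPKM sum 252 were higher. Fewer libraries make separation easier by construction.

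SRSF1 stayed lower, at -2.07 by group means (adjusted p = 0.944 from limma) and -2.23 with replicates averaged, both short of the threshold, and at -2.16 to -1.88 with 1 library left out. Genes called higher in both siSRSF1-2 against blank and siSRSF1-3 against OE-LINC01134 numbered 31 with a pseudocount of 1, 15 with the same sum and 16 to 49 with 1 library left out, and genes lower in both 7 with the same sum and 14 to 26. With references exchanged these were 17, 1 and 0 to 123 higher, and 0 and 0 to 57 lower.

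Among named genes, 6 that never passed the threshold changed sign. SRSF2 was 0.069 without blank replicate 1 and OE-LINC01134 replicate 2. With the same sum SRSF4 was -0.17, SRSF5 -0.13, SRSF8 -0.0033 and SRRM2 -0.16, and with own read totals SRSF4 -0.077, SRSF5 -0.033 and SRRM2 -0.066. Against OE-LINC01134 alone SRSF4 was -0.16 and SRRM2 -0.20, and against blank alone SRSF5 -0.0065 and SRSF11 0.12. With siSRSF1-3 alone SRSF4 was -0.090, SRSF5 -0.083 and SRRM2 -0.30, with siSRSF1-2 alone SRSF11 0.17, and without siSRSF1-3 replicates 1 and 2 SRSF11 0.14. With replicates averaged SRSF4 was -0.057, SRSF5 -0.0093 and SRRM2 -0.14. With 1 library left out SRSF4 ran from -0.036 to 0.10 and SRRM2 from -0.043 to 0.17. The causes were not tested.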
